A study of Physcomitrium patens with 5 samples.

Results

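In the moss Physcomitrium patens, methylation at protein kinase genes was compared across drying and rewetting, for 6 of the 225 genes in the authors' deposited table of methylation differences. They are Pp1s210_4V6, Pp1s210_5V6, Pp1s332_14V6, Pp1s332_17V6, Pp1s214_1V6 and Pp1s471_4V6. They were chosen by their kinase annotation and by their listed methylation ratios, all of which were higher than in the hydrated library. Their listing, their direction and the size and rank of their ratios are therefore not findings. Together they had 8 entries in the table, which come down to 5 distinct regions of the 224 in all, because neighbouring genes share regions.

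Bisulfite sequencing was done on gametophores, the leafy shoots of the moss. Plants on BCD medium gave 1 library each from moderately dehydrated, severely dehydrated, partially rehydrated, fully rehydrated and hydrated tissue, and the labels call the first of these mild in another place. The sources used here give no strain, age or length of treatment. The table compares each of the other 4 libraries with the same hydrated library, so the comparisons share their control. With 1 library per state, no difference has a replicate check and no test was made. The read depth is unknown, and no counting error can be attached to a level.

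A protein kinase moves a phosphate group from ATP to a protein, and phosphatases remove it. In plants, kinase cascades carry signals from hormones and water loss, as in abscisic acid signalling, and cyclin-dependent kinases drive the cell cycle. DNA methylation in plants occurs in several sequence contexts and is best known for silencing transposable elements. The effect of methylation in the flank of a gene on its transcription differs between genes and was not measured here.

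The kinase label rests on the annotation in the table. All 6 genes carry the ontology term protein kinase activity, and 5 carry phosphorylation and adenyl ribonucleotide binding, a class of terms that covers ATP binding. The exception to both is Pp1s210_5V6, which has only metal ion binding beside the kinase term. Pp1s332_17V6 also carries hydrolase activity on ester bonds. An orthology definition is given for Pp1s214_1V6 and Pp1s471_4V6. Each definition ends in a further orthology identifier, so their identity is not settled. Pp1s214_1V6 is defined as a cyclin-dependent kinase and holds the term M phase of mitotic cell cycle. It also holds motor activity, microtubule-based process and microtubule cytoskeleton, which are terms of motor proteins. The RefSeq gene table held 0 of the 6 identifiers.

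All 8 entries lay in the 2 kb flanks of the genes and 0 in a gene body, with 6 downstream and 2 upstream. Over the whole table, 83.5% of the 267 entries lay in a flank and 40.4% in the downstream flank. The 6 downstream entries are those of the neighbouring pairs on scaffolds 210 and 332, so they stand for 3 regions at 2 places. Of the 5 regions, 4 were linked to more than 1 listed gene, against 38 of the 224 regions in all. Those 3 regions are among the 4, and both genes of each pair were chosen, so nothing is read from this share. The regions spanned 247 to 370 bases from start to end, with a median of 346, against a median of 309.5 in the whole table (quartiles 245.75 and 405.25). They began between 13363 and 44037 on their scaffolds.

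In the dehydrated libraries, the pair Pp1s210_4V6 and Pp1s210_5V6 shared a region downstream of both genes on scaffold 210. No orthology definition is given for either gene. By the authors' deposited table this region ran from 25919 to 26272 in moderate dehydration, at a log2 ratio of 3.22, or 9.33 times the hydrated level. In severe dehydration the authors' deposited table gave it from 25926 to 26272, with a log2 ratio of 2.66, or 6.33 times the hydrated level. Moderate and severe dehydration thus listed nearly the same stretch, 7 bases apart at the start and with the same end. Among the listed regions, it ranked second from the highest of 30 in moderate dehydration and highest of 22 in severe dehydration. For neither gene is a region listed in partial or full rehydration, and the table holds no value for a stretch that is not listed.

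**Figure D1:**
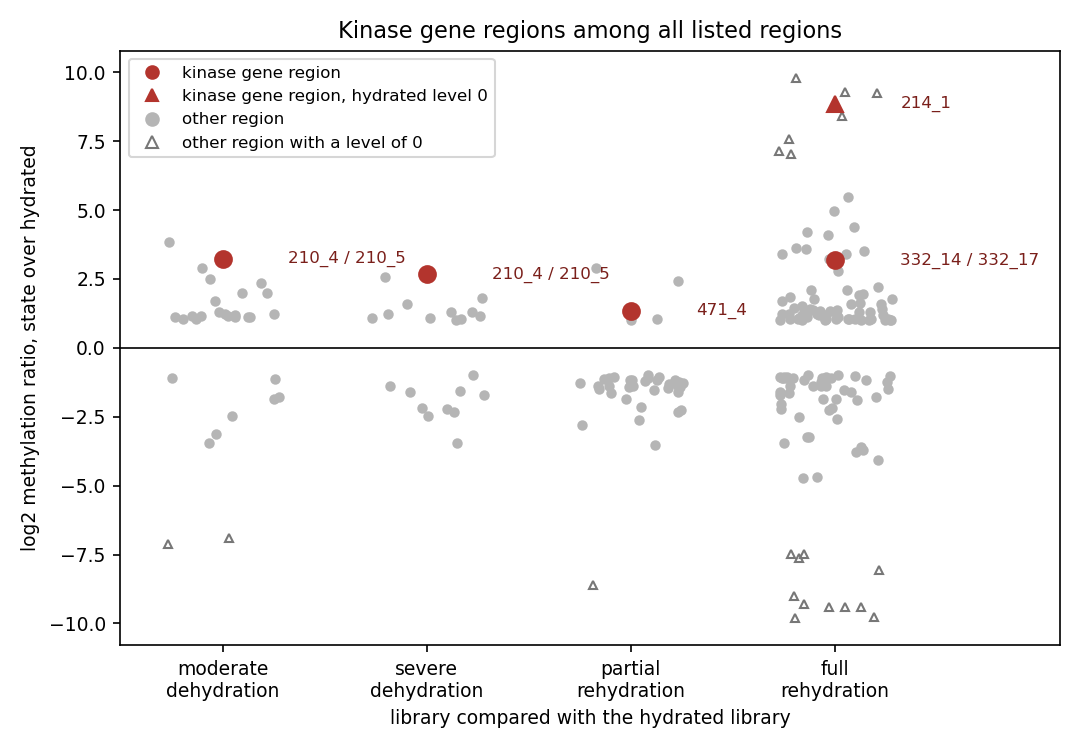
Log2 methylation ratio of every distinct region in the authors' deposited table (y axis) by the library set against the hydrated library (x axis), with the 5 regions of the 6 kinase genes in red and labelled by gene. Triangles are regions with a recovered level of 0 in either library, whose height depends on the small value that stands for 0; the kinase gene regions lie between 1.34 and 8.85, all above the line at 0.

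Levels behind a ratio can be narrowed down because each listed ratio is an exact quotient of 2 whole-percent levels. Whole-percent levels also leave the folds coarse where the hydrated level is low. Where only 1 pair of levels gives a ratio, that pair is printed as the recovered level of each library. For scaffold 210, 3 pairs of levels give the moderate dehydration ratio: 28% with 3%, 56% with 6% and 84% with 9%, the hydrated level second. The severe dehydration ratio is given by 5 pairs, from 19% with 3% to 95% with 15%. In every pair the hydrated level was at most 15%. That ceiling follows from the size of the ratios, on which the genes were chosen, so nothing is read from it. If both comparisons rest on the same hydrated level, 3 solutions are left. They are 3% in hydrated, 28% in moderately and 19% in severely dehydrated tissue, or 6%, 56% and 38%, or 9%, 84% and 57%. The level is then 1.47 times as high in moderate as in severe dehydration, a value set by the listed ratios alone and so the same in each. The gap was 9, 18 or 27 percentage points. The shared level is an assumption. For another kinase gene, Pp1s39_22V6, regions shifted by 1 base had recovered hydrated levels of 33% and 38%, and whether the 7 bases on scaffold 210 change the hydrated level was not tested.

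In partial rehydration, Pp1s471_4V6, defined as casein kinase 1, had a region on scaffold 471, from 13363 to 13636, in the upstream flank. Casein kinase 1 is a serine/threonine kinase that acts without a second messenger. Its log2 ratio, as the authors' deposited table has it, was 1.34, or 2.54 times the hydrated level. The pairs that give this ratio are 33% with 13%, 66% with 26% and 99% with 39%, so the hydrated level was at least 13% here. It was 1% to 15% over all pairs of levels on scaffolds 210 and 332. These ranges overlap and follow from the listed ratios, so no difference in hydrated level is read from them. The same region is listed downstream of Pp1s471_2V6, defined as telomeric repeat-binding factor 2, again with a further identifier. Among the 40 regions of partial rehydration its rank from the highest was 3 and was 1 of 5 that were higher than hydrated.

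In full rehydration, the neighbours Pp1s332_14V6 and Pp1s332_17V6 shared a downstream region on scaffold 332, from 44037 to 44407. Its log2 ratio by the authors' deposited table was 3.17, a level 9 times that of the hydrated library, which ranked 20th from the highest of 132. This ratio fixes the levels least well. Any of 11 pairs gives it, from 9% with 1% to 99% with 11%, and the hydrated level was therefore at most 11%. The region is also listed upstream of Pp1s332_18V6, a gene without annotation. That gene had a further region downstream, from 46575 to 46932, and the log2 value there was -1.38 by the authors' deposited table. Regions of opposite sign thus stood 2168 bases apart in the same comparison, on either side of Pp1s332_18V6. That the higher one is shared with the kinase genes belongs to their choice.

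Pp1s214_1V6, defined as a cyclin-dependent kinase, was also listed in full rehydration, for a region upstream of it from 13875 to 14122 on scaffold 214. Its level was 46% in the fully rehydrated library, against 0 in the hydrated library, both as recovered levels. The table lists no levels: the 0 is inferred, because no pair of whole percents above 0 gives this ratio and 46% over 0.001 (on a scale of 0 to 1) gives it exactly. The value of 8.85 that the authors' deposited table has for the log2 ratio thus depends on what stands for the 0, and no fold is given. A level of 0 in the hydrated library was recovered in 8 of the 132 regions of full rehydration, and this one had the fourth highest level after rehydration. The 8 levels ran from 13% to 89%. On the same scaffold, 164324 bases away, a dynein heavy chain gene (Pp1s214_25V6), for a motor protein, had a body region in partial rehydration, for which the authors' deposited table has a log2 ratio of -1.

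**Figure D2:**
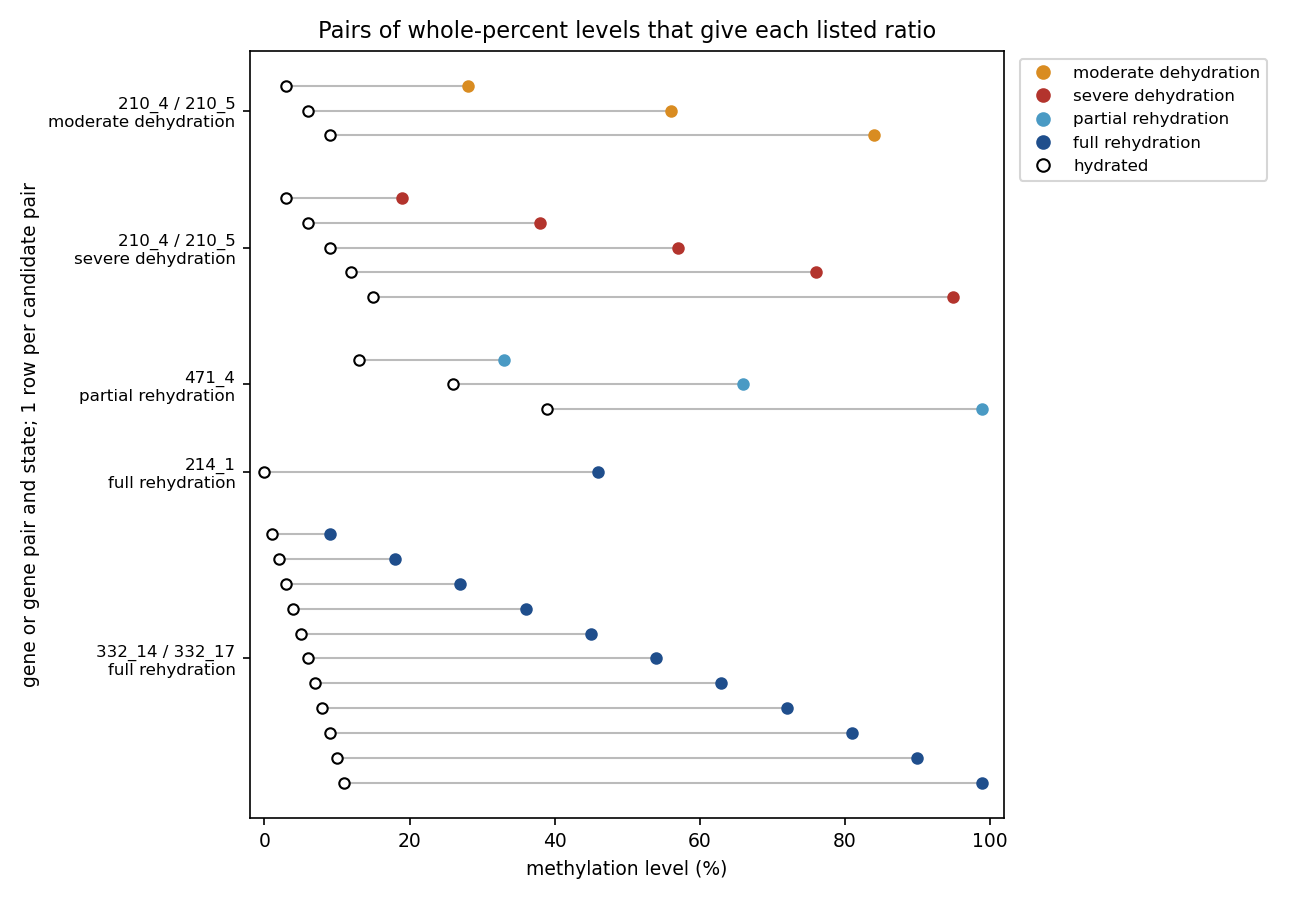
All pairs of whole-percent methylation levels (x axis, in percent) that give the listed ratio of each kinase gene region (y axis, 1 row per pair), with filled circles for the dehydrated or rehydrated library and open circles for the hydrated library. Only Pp1s214_1V6 has a single pair, 46% and 0. For the pairs on scaffolds 210 and 332 the hydrated level is at most 15% in every row. That ceiling follows from the size of their ratios.

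Across the states, the 5 regions had a median size of 3.17 on the log2 scale, against 1.44 over all 224 regions, and all 5 were higher than in the hydrated library. The share of all listed regions that were higher was 70.0% in moderate dehydration, 54.5% in severe dehydration, 12.5% in partial rehydration and 56.1% in full rehydration. The kinase genes had 1, 1, 1 and 2 regions in these comparisons. Since the genes were chosen on these ratios, nothing is read from their count against these shares, or from the size of their ratios. The smallest of the 5 sizes was 1.34, at Pp1s471_4V6, under the median of 1.37 for partial rehydration, and the smallest size in the whole table was 1.

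The other genes with kinase annotation did not all lie on the higher side. A search for kinase in the orthology definition, or for protein kinase and phosphorylation terms, found 15 genes. Of these, 11 had only higher regions, 3 had only lower regions and 1 had some of each. Without the 6 genes above, 9 genes were left, with 5 higher, 3 lower and 1 both. Their 13 regions, 7 higher and 6 lower, had a median size of 1.11 on the log2 scale. Overlapping regions of 1 gene were counted separately, at Pp1s39_22V6 among the higher and at Pp1s508_5V6 among the lower. Of these 9 genes, 3 are defined as another protein (MOB1, RPM1 and dihydroxyacetone kinase), and they hold 4 of the 6 lower regions. The definitions as MOB1 and RPM1 also end in a further identifier, so the identity of those genes is not settled. The identifier at MOB1 is the same as at Pp1s214_1V6. Without the 3 genes, 6 remained, 4 higher and 2 lower, with 5 higher and 2 lower regions. Of the 127 annotated genes of the table, 54 were higher only, 71 lower only and 2 both. The genes found by this search thus differed in direction among themselves, with or without those 3, and the uniform direction of the 6 genes belongs to their choice.

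Among the higher ones was Pp1s489_24V6, with the same orthology definition as Pp1s471_4V6, casein kinase 1 with a further identifier. The authors' deposited table listed it in full rehydration, downstream, at 1.04. The genes with this definition were thus listed in different comparisons and in different flanks, with log2 ratios of 1.34 and 1.04 in the authors' deposited table. Pp1s43_35V6 is defined as PBS1, a kinase that in Arabidopsis is watched over by an immune receptor. It stood at 87% in the fully rehydrated library, against 41% in the hydrated library, in its upstream flank. Pp1s39_22V6, with kinase terms only, had downstream levels of 71% in full rehydration against 33% in the hydrated library, and 79% against 38% in the region shifted by 1 base. Pp1s162_57V6 had the largest ratio of the other kinase genes with both levels above 0, 2.12 upstream in full rehydration in the authors' deposited table. Its orthology definition holds only an enzyme number and a further identifier, so it was found by its ontology terms. Pp1s181_95V6, at 1.22 upstream in severe dehydration in the authors' deposited table, is defined as dihydroxyacetone kinase, an enzyme that acts on a sugar and not on a protein.

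On the lower side was Pp1s250_28V6, defined as PRP4, a kinase of the spliceosome. Its definition also ends in a further identifier, so its identity is not settled. Its body region had a recovered level of 0, inferred in the same way, in the fully rehydrated library, against 18% in the hydrated library. This is the reverse of the pattern at Pp1s214_1V6, where the 0 was in the hydrated library. The gene defined as FLS2 (Pp1s783_2V6), in Arabidopsis the receptor kinase for bacterial flagellin, stood at 35% in the fully rehydrated library, against 82% in the hydrated library, also in its body. Pp1s282_60V6, defined as MOB1, a protein that binds and activates kinases, stood at -1.09 upstream and -1.39 downstream in full rehydration by the authors' deposited table (log2 ratios). Pp1s508_5V6, defined as the resistance protein RPM1, had log2 ratios of -1.26 and -1.11 in partial rehydration in the authors' deposited table. These regions overlap, the second (8233 to 8481) lying inside the first (8173 to 8558). In full rehydration the gene stood at 1.04 by the authors' deposited table, in another stretch (7943 to 8173) that ends where the first begins. All its regions lay downstream of the gene. The only body entries among the 15 genes were those of PRP4 and FLS2, and both were lower. The direction of body entries over the whole table was not counted, so nothing is read from this.

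**Figure D3:**
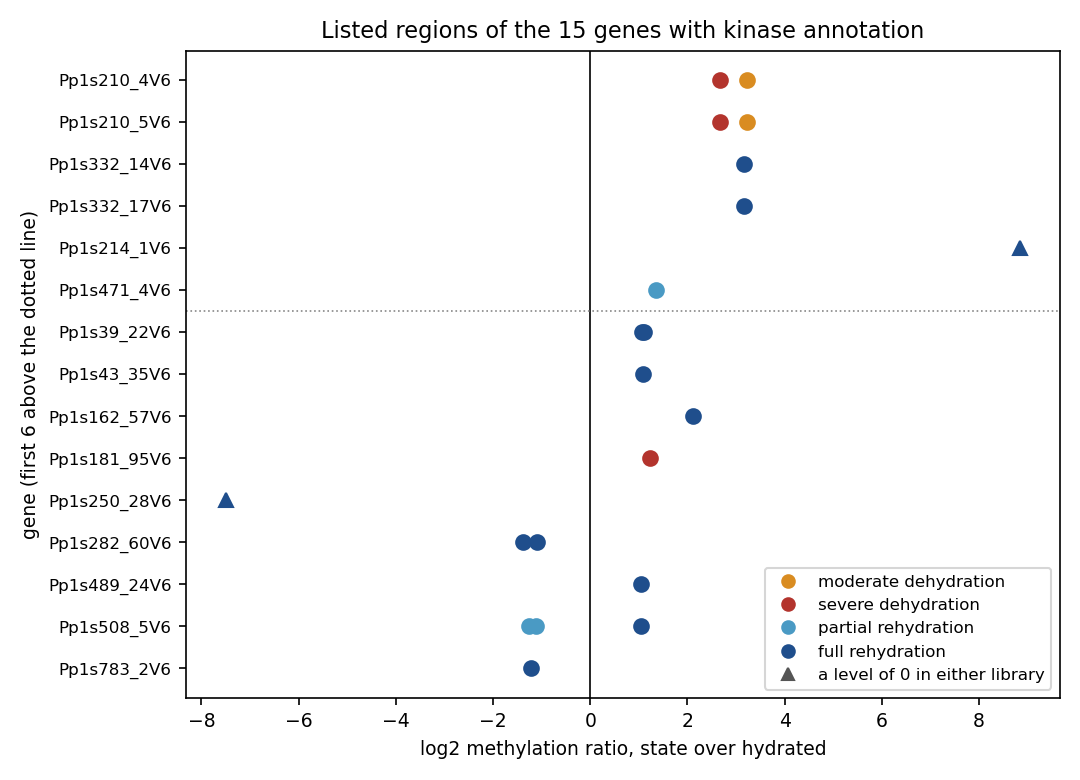
Log2 methylation ratio against the hydrated library (x axis) for every listed region of the 15 genes with kinase annotation (y axis), coloured by state, with the 6 genes described first above the dotted line. The 6 genes lie to the right of 0, and the 9 genes below the line lie on both sides; triangles mark regions with a recovered level of 0 in either library.

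Genes for the opposing enzymes were few. By annotation, 4 genes had a phosphatase definition or term, 1 higher and 3 lower. Of the 127 annotated genes, 54 were higher only, 71 lower only and 2 both, so nothing is read from the direction of these 4. A protein phosphatase gene (Pp1s212_18V6) stood at -1.39 upstream in partial rehydration in the authors' deposited table. Pp1s448_34V6, defined as protein phosphatase methylesterase 1, which removes a methyl group from a protein phosphatase, was at 27% in the fully rehydrated library, against 82% in the hydrated library. A multiple inositol-polyphosphate phosphatase gene (Pp1s363_25V6) was at 23% in the fully rehydrated library, against 72% in the hydrated library, and its enzyme acts on inositol phosphates and not on proteins. The higher one, Pp1s304_50V6, had a phosphatase term only and stood at 69% in the fully rehydrated library, against 4% in the hydrated library. A search for cyclin, cell cycle and mitosis found 1 gene, Pp1s214_1V6, and a search for the exact term ATP binding found 0. The broader term adenyl ribonucleotide binding was held by 27 genes, of which 13 were higher only, 12 lower only and 2 both.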

How the data were processed

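The authors' deposited table holds 225 genes and 4 comparison columns, each setting the hydrated library against 1 other. Per the file headers, an entry gives the gene part, start, end, methylation ratio and direction. The authors' values are log2 ratios. The sources used here name no aligner, region caller, threshold, genome build, cytosine context or depth. Coordinates are printed as deposited.

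A region listed for several genes in 1 comparison was counted once. Levels were recovered by finding all pairs of whole percents whose quotient gives the ratio within a relative tolerance of 1e-09, with 0.001 standing for 0. The table does not name the numerator. For the regions on scaffold 210, 3 hydrated levels could give both ratios with the hydrated library as denominator and 0 with it as numerator, if they share a level. The 2 region pairs with identical ends gave 2 and 6 levels as denominator and 0 as numerator. Values above 0 are thus taken as higher than hydrated.

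The genes and lists were chosen with earlier results of these data known. Of the other kinase genes, all with kinase in the definition and the 5 largest found by ontology terms alone were to be named. Of the latter, 4 existed. The search for adenyl ribonucleotide binding was added after the table was seen. Python 3.11.15 and matplotlib 3.10.9 were used.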

Additional observations from a re-analysis of the deposited data

How the results depend on the processing

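With every gene and region entry counted in place of distinct regions, the 6 kinase genes had 8 regions in place of 5, of which 8 were higher in place of 5. With overlapping regions merged across comparisons there were 4, all 4 higher. Without the region with a level of 0, the median size on the log2 scale was 2.92 in place of 3.17, and with every entry counted it was 3.17. Both levels were recovered for 1 of the 5 regions, also at a relative tolerance of 1e-06, and for 0 when no level of 0 was allowed. Over the whole table, the orthology definition alone found 7 kinase genes in place of 15 and 5 higher regions in place of 12. The ontology terms alone found 13 genes. Alternatives chosen after the table was seen gave 14 genes and 11 higher regions without the dihydroxyacetone kinase, and 12 genes and 10 higher regions without it and the genes defined as MOB1 and RPM1. Merging overlapping or touching regions, also chosen after the table was seen, left 9 higher loci. There the higher region of Pp1s508_5V6 joined the lower region that it touches, so its locus was not counted as higher. No sample could be left out, since each state had 1 library. The unknown depth limits every level, above all those recovered as 0, and genes below the authors' thresholds have no value in the table. Fewer molecules read and a true absence of methylation cannot be told apart at a level of 0.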
